A study of Mus musculus with 2 samples.

Results

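Genes of the proteasome were compared between the epidermis of control mice and of mice whose keratinocytes carry a deletion of Nfkbiz, the gene of the nuclear IκB protein IκBζ. Members were all genes in the RefSeq gene table of assembly GRCm38.p6 whose symbol begins with Psm, then a letter from a to g and a digit. The table held 57 such symbols. Of these, 51 were protein-coding genes and 6 were pseudogenes. Probes named through their RefSeq accession read 50 of the genes with 71 probes, out of 18213 genes and 26682 probes named in all. Signals were well above background on both arrays for 48 of the 50, 5 of them immunoproteasome or PA28 activator genes and 43 others. The others included Psmc3ip and Psme3ip1, which fit the naming rule but encode binding partners and not subunits. Psma8, a testis subunit, and Psmb11, the thymus-specific catalytic subunit, were not well above background on either array. The 6 pseudogenes and Psme2b, a close copy of Psme2, had no named probe, so a Psme2 probe may also read Psme2b transcripts.

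Each genotype was measured on 1 one-colour Agilent array, so the differences rest on 1 sample against 1, carry no replicate error and were given no test. The control genotype was Nfkbiz flox/flox, and the knockout genotype was Nfkbiz flox/flox; K5-cre, so both groups carried the floxed alleles and only the knockout carried the recombinase. The keratin 5 promoter that drives the recombinase is active in basal keratinocytes, and peeled epidermis also holds cells in which it is not. Both were labelled as steady-state epidermis, lifted from skin kept for 30 min at 37 °C in 3.8% ammonium thiocyanate. Strain, age, sex and the number of mice behind each RNA are not given in the sources used here.

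The proteasome is the barrel-shaped protease that degrades ubiquitin-tagged proteins and supplies most of the peptides shown on MHC class I. Its 20S core stacks rings of alpha subunits around rings of beta subunits, and the 19S cap, made of ATPases and non-ATPase subunits, recognises, unfolds and feeds the substrate. Interferon-γ is known to induce a set of replacement subunits, Psmb8, Psmb9 and Psmb10, which take the places of the constitutive catalytic subunits Psmb5, Psmb6 and Psmb7 in newly built cores, and the activator subunits Psme1 and Psme2, which form the PA28αβ ring. The core so formed is called the immunoproteasome. Leukocytes express it without stimulation, while most other cells carry the constitutive form.

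The promoters of the 3 immune catalytic genes and of the constitutive partners Psmb5 and Psmb6 are shown because the data below separate these genes. They were read from RefSeq's promoter table (GRCm38.p6), 250 bases before and 50 bases after the annotated start, 5′ to 3′ on the gene's strand. Capitals mark matches on either strand to the motifs GAAANNGAA (interferon-stimulated response element core), TTCNNNGAA (GAS, the interferon-γ-activated site), TGACNNNGC (antioxidant response element) and the κB consensus.
Psmb8, chr17:34197945-34198244, plus strand: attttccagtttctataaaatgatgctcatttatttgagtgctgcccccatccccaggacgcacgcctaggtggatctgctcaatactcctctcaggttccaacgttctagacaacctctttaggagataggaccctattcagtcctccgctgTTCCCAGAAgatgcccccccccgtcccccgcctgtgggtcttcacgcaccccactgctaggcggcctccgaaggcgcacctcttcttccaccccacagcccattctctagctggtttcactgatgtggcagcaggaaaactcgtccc
Psmb9, chr17:34187281-34187580, minus strand: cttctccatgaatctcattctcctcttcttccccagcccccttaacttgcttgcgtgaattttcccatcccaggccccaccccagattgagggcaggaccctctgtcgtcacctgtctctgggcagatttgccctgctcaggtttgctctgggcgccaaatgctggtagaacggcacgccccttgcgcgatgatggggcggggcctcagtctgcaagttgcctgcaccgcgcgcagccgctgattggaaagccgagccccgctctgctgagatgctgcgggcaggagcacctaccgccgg
Psmb10, chr8:105938343-105938642, minus strand: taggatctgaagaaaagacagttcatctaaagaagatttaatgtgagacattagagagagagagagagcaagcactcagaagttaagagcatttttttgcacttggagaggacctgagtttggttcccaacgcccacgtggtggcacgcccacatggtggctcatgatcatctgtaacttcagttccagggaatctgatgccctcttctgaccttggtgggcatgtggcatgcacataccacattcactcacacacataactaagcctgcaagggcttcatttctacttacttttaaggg
Psmb5, chr14:54617946-54618245, minus strand: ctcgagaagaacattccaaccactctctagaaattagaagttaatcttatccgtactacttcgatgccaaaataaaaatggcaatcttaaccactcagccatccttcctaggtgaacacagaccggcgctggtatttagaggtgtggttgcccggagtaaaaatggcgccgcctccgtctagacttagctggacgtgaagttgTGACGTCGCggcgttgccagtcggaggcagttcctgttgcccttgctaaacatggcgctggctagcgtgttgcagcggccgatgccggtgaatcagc
Psmb6, chr11:70525107-70525406, plus strand: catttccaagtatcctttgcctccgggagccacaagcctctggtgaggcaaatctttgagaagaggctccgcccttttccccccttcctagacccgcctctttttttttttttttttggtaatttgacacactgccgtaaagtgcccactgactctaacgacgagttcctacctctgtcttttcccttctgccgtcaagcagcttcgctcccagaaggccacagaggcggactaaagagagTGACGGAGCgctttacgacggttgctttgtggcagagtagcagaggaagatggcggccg
The Psmb8 window held 1 match to the GAS motif, whose first base lay at -97 from the start. Psmb5 and Psmb6 each held 1 match to the antioxidant response element, at -47 and -9. The windows of Psmb9 and of Tap1, a peptide transporter gene read from the opposite strand, shared 275 of their 300 bases, and in the gene table the order along the chromosome is Psmb9, Tap1, Psmb8, Tap2. Across 43 members with a promoter searched, the GAS motif was found in 1 of the 5 immunoproteasome and PA28 genes (Psmb8) and in 2 of 38 others, against 8.3% of all 32851 promoters. The response element core was found in 1 of the 5 (Psme1) and 6 of 38 others, against 8.56% of all promoters. The antioxidant motif was found in none of the 5 and 6 of 38 others (12.4% of all), and the κB consensus in none of the 5 and 6 of 38 others (8.46% of all). These matches describe letters in a short window and mark no measured binding.

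The keratinocyte signature of the tissue was present on both arrays. All 9 keratinocyte markers looked for were measured on each, among them Krt5, Krt14, Krt1 and Krt10, and the 4 endothelial markers looked for did not pass background on either. The array medians of signal were 22.4 and 20.6 and the 75th percentiles 194 and 227 for control and knockout, and 56.2% and 56.3% of 41174 probes were well above background. Nfkbiz had signals of 3100 in the control and 1760 in the knockout, 2.06-fold lower after scaling. Its single named probe has no stated place relative to the deleted exons. All log2 differences below are knockout minus control, after each signal was divided by the 75th percentile of its array. The value after ± is a standard error that combines the errors the scanner software gave both signals, and it covers technical error on the arrays and not variation between mice. Its median over the measured members was 0.204 and most had nearly that value, so it is no spread measured gene by gene. Over the 12405 named genes measured on both arrays the median difference was -0.05. Dividing by the array median instead adds 0.35 to every difference and puts that median at 0.30, so group medians are read against the median of all genes.

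Psmb8, Psmb9 and Psmb10, the immune catalytic subunits, were each about 2-fold higher on the knockout array, while the constitutive subunits they replace lay close to the median gene. Psme2, the β subunit of PA28, was 1.66-fold higher at its representative probe, and its partner Psme1 1.13-fold. Outside these 5 genes, 42 of 43 measured members were within 2-fold, and the exception, the ATPase gene Psmc5, had probes that disagreed.

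**Figure D1:**
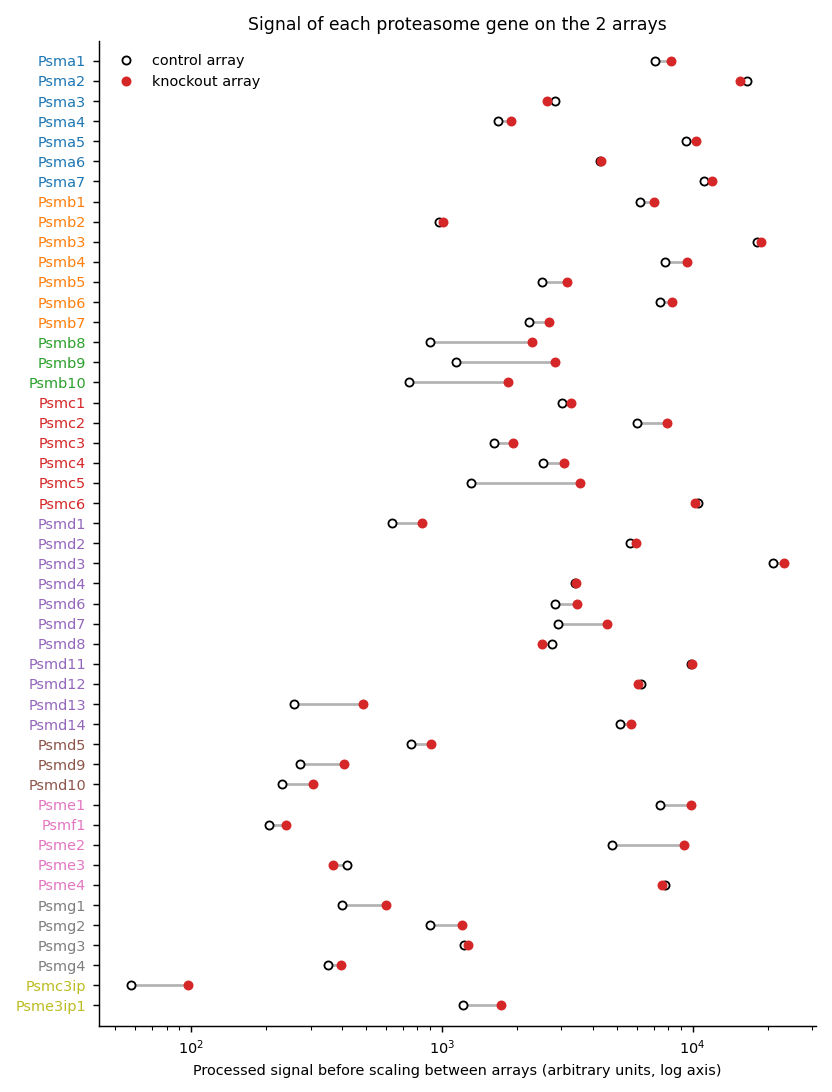
Processed signal of the 48 measured proteasome genes on the control array (open circles) and knockout array (red), before scaling between arrays, on a log axis, with 1 row per gene and label colours for roles. Psmb8, Psmb9, Psmb10 and Psmc5 span the longest distances, each at least 2-fold after scaling.

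Psmb8 (β5i), which replaces Psmb5, had signals of 900 in the control and 2280 in the knockout, a log2 difference of 1.11 ± 0.20. A further Psmb8 probe gave 789 and 1980, a log2 difference of 1.10. Psmb9 (β1i), which replaces Psmb6, had signals of 1140 and 2830, a difference of 1.09 ± 0.20. Psmb10 (β2i), which replaces Psmb7, had 742 and 1830, a difference of 1.08 ± 0.20. These 3 genes were thus higher on the knockout array by nearly the same factor, 2.17-fold, 2.12-fold and 2.11-fold, over a range of log2 differences of 1.08 to 1.11. Of all genes measured, 2.14%, 2.29% and 2.34% had a difference as high as those of Psmb8, Psmb9 and Psmb10. Well-measured spots within 3 rows and 3 columns of these probes had median differences between -0.35 and -0.07, and 2 of the 26 spots around 1 of the Psmb8 probes, and none around the others, were at least 2-fold higher.

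The constitutive partners showed no such gap. Psmb5, the chymotrypsin-like subunit, had signals of 2500 and 3160, a difference of 0.11 ± 0.20. Psmb6, the caspase-like subunit, had 7420 and 8250, a difference of -0.07 ± 0.20. Psmb7, the trypsin-like subunit, had 2230 and 2680, a difference of 0.04 ± 0.20. The difference of each immune subunit minus that of its partner does not depend on how the arrays are scaled by a common factor. It was 1.0 ± 0.29 for Psmb8 against Psmb5, 1.16 ± 0.29 for Psmb9 against Psmb6 and 1.04 ± 0.29 for Psmb10 against Psmb7. The error here combines those of both genes as if they were independent. The immune to constitutive ratio of signals was thus 2.0-fold, 2.23-fold and 2.05-fold higher on the knockout array at the 3 catalytic places. Messenger RNA was measured here and not the subunit content of assembled proteasomes.

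Activators and the inhibitor were mixed. Psme2 had signals of 4780 and 9270 at its representative probe, a log2 difference of 0.73 ± 0.20. Its other probe, the brighter on the control array with 4920 and 6850, gave 0.25. The size for Psme2 thus lies between 1.19-fold and 1.66-fold depending on the probe, and the choice by mean signal took the larger. Psme1, its partner in the PA28αβ ring, had 7440 and 9830, a difference of 0.18 ± 0.20 that is smaller than its error. Psme3, which forms the nuclear PA28γ ring and is not part of the interferon-γ set, had 418 and 369, a difference of -0.41 ± 0.20 and the lowest of the 48 measured members. It was at -0.06 under median scaling. Psme4, the activator PA200, had 7770 and 7530 (-0.27 ± 0.20), with further probes at -0.07 and -0.58. The last was dim, with signals of 24.5 and 19.2 and an error of 0.32. Psmf1, the inhibitor PI31, had 204 and 240 (0.01 ± 0.21), with its other probes at 0.41 and 0.82. Its probe at 0.82 lay near background, with signals of 13.9 and 28.8 and an error of 0.37.

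**Figure D2:**
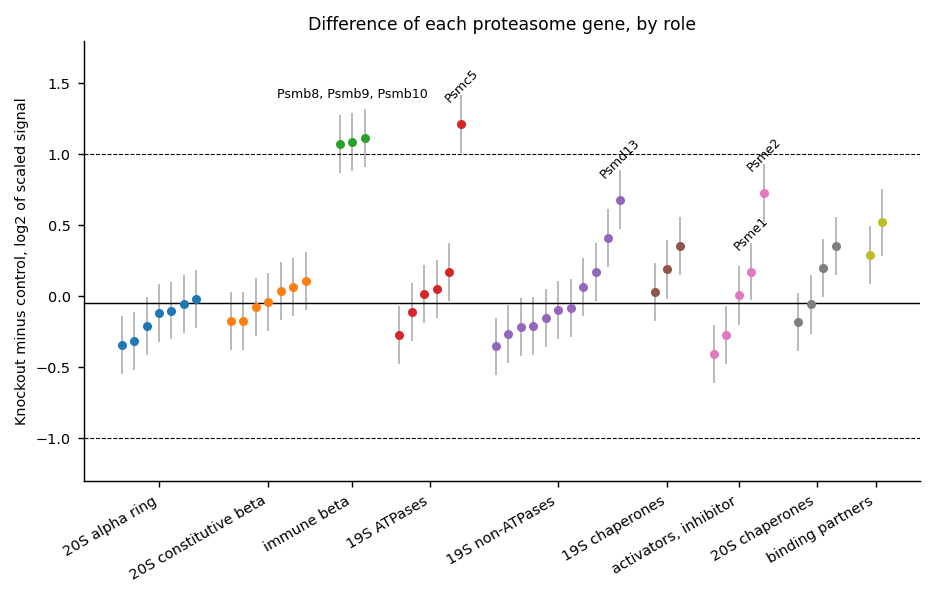
Knockout minus control log2 difference of scaled signal for the 48 measured genes, grouped by role, with bars of 1 standard error from the scanner software. The solid line is the median of all genes at -0.05 and the dashed lines mark 2-fold. Psmb8, Psmb9, Psmb10 and Psmc5 lie above the upper line and no gene below the lower.

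Among the structural genes of the core, differences were small. The 7 measured alpha ring genes, whose products gate the entry to the barrel, ranged from -0.34 for Psma3 (2840 and 2620) to -0.02 for Psma1 (7090 and 8210). Their median was -0.11, or -0.07 relative to that of all genes, and it was above 0 under median scaling alone. Psma2 had signals of 16500 and 15500 (-0.32) and Psma7 11100 and 12000 (-0.11). The 7 constitutive beta ring genes ranged from -0.17 for Psmb2 (973 and 1010) to 0.11 for Psmb5, with a median of -0.04 that turned above 0 under median scaling, quantile normalization, loess and normexp. Psmb1 had 6170 and 7010 (-0.04), Psmb3 18100 and 18800 (-0.17) and Psmb4 7770 and 9540 (0.07). Both sets lay wholly within 2-fold.

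In the 19S cap, 16 of 17 measured genes were within 2-fold. Psmc5, the ATPase Rpt6, had signals of 1310 and 3560 at its representative probe, a log2 difference of 1.22 ± 0.20 and the highest among the members. That probe was picked by its mean signal over both arrays, so its high knockout signal entered the choice. The other measured Psmc5 probe, the brighter on the control array, had 1690 and 2390, a difference of 0.27. This gap of 0.94 between its probes was reached by 7.92% of the 4067 named genes with at least 2 measured probes, whose median gap was 0.24. Spots around the higher probe had a median difference of 0.03, and those around the other -0.24. The other 5 ATPases ranged from -0.27 for Psmc6 (10500 and 10200) to 0.17 for Psmc2 (5990 and 7890). Psmc1 was at -0.11, Psmc3 at 0.02, near a spot marked as non-uniform, and Psmc4 at 0.05.

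The 11 non-ATPase genes had a median of -0.09, which changed sign under median scaling and normexp. Psmd13, a lid subunit, was the furthest up, with signals of 258 and 484 (0.68 ± 0.21, 1.60-fold) at a single probe. Psmd7, the lid partner of the deubiquitinase Psmd14, had 2920 and 4550 (0.41 ± 0.20), but its other probe had 871 and 799 (-0.35), so its probes differed in sign. Psmd8 was the furthest down, with 2750 and 2520 (-0.35 ± 0.20). Psmd4, a ubiquitin receptor, had 3390 and 3420 (-0.21), the deubiquitinase Psmd14 had 5160 and 5660 (-0.09), and the scaffold subunits Psmd1 and Psmd2 were at 0.17 and -0.15. Psmd3 (-0.08), Psmd6 (0.07), Psmd11 (-0.21) and Psmd12 (-0.26) completed the set, none past 1.5-fold.

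Assembly factors were all within 1.5-fold. The 19S chaperones Psmd5, Psmd9 and Psmd10 were at 0.03, 0.36 and 0.19. The 20S chaperone genes Psmg1, with signals of 400 and 598, and Psmg2, with 894 and 1200, were at 0.35 and 0.20, while Psmg3 and Psmg4 were at -0.18 and -0.06. Pomp, the maturation factor that interferon-γ is known to induce and that matches no part of the naming rule, had 12800 and 16600 (0.15 ± 0.20). The binding partners Psmc3ip and Psme3ip1 were at 0.52 and 0.29. The other measured Psmc3ip probe was at -0.09.

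At least 2-fold higher were 4 of 48 measured members, Psmb8, Psmb9, Psmb10 and Psmc5, against 2.98% of all 12405 genes. Psmc5 was counted only through its probe that was brighter on the knockout array. No member was at least 2-fold lower, against 4.46% of all genes. Members read by bright probes can be set beside genes of like brightness. Among the 3273 genes whose mean scaled signal was at least that of Psmb10, 1.74% were at least 2-fold higher and 3.02% lower. The set included 36 members, and the same 4 were called higher. Psmb10 was the dimmest of the 5 immunoproteasome and PA28 genes by that mean, so all 5 are in the set by definition. High knockout signals entered the mean, so the calls of Psmb8, Psmb9 and Psmb10 within the set add no support. At 1.5-fold, Psmd13 joined, as did Psme2 through its probe that was brighter on the knockout array. This gave 6 of 48 against 10% of all genes, a share near the background, and no member was lower against 13.4%. At 3-fold no member was apart in either direction, against 0.83% and 1.52% of all genes.

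**Figure D3:**
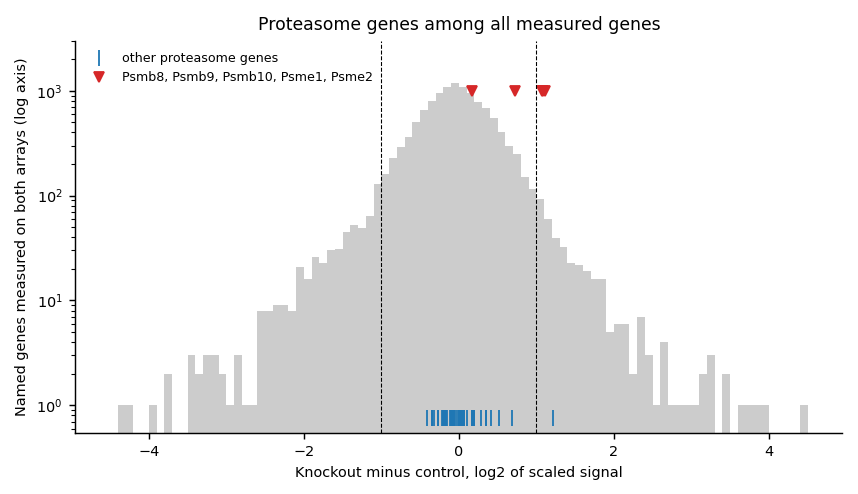
Number of named genes measured on both arrays (grey, log axis) by knockout minus control log2 difference. Red triangles mark Psmb8, Psmb9, Psmb10, Psme1 and Psme2, blue ticks the 43 other proteasome genes, and dashed lines 2-fold. The blue ticks crowd around the peak while the immune catalytic genes sit at 1.08 to 1.11.

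The median difference of the 5 immunoproteasome and PA28 genes was 1.08, or 1.12 relative to the median of all genes. That of the 43 others was -0.06, or -0.01 relative to all genes, and its sign turned under median scaling, quantile normalization, loess and normexp. The gap between both medians was 1.13. The 43 other genes lay closer together than genes in general, with 40 of 43 (93.0%) within 0.5 of zero on the log2 scale against 70.3% of all genes. Bright genes as a class also lay closer together, with 81.5% within 0.5 of zero. Among 31 of the other members at that brightness, 30 were.

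Genes that serve the proteasome from outside were within 2-fold. Of 16 listed proteasome partners, 15 were measured and none was 2-fold apart, with a median of 0.04. The widest were the shuttle factor gene Ubqln1 (3870 and 3360, -0.43), the deubiquitinase gene Uchl5 (-0.32) and, on the high side, Zfand5 (2610 and 3670, 0.27). Of 14 genes for the NRF1 transcription factor route, which restores proteasome genes when proteasome activity is low, and for ubiquitin supply, 13 were measured and none was 2-fold apart. Nfe2l1, which encodes NRF1, had 7560 and 7060 (-0.33), and the polyubiquitin gene Ubb had 22900 and 38300 (0.52).

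Genes that act with the immunoproteasome in the MHC class I route were higher by less than 2-fold or not higher. Of 15 listed, 14 were measured, 9 of them above 0, with a median of 0.13. The aminopeptidase gene Erap1, which trims peptides, had signals of 188 and 417 (0.92 ± 0.21). Tap2 and Tap1, which encode the peptide transporter, had 176 and 381 (0.89) and 823 and 1470 (0.61), and Tapbpl, a peptide editor, was at 0.61. The heavy chain genes H2-K1 and H2-D1 were at -0.09 and -0.11, B2m, the light chain, at 0.33, and Nlrc5, a transactivator of class I genes, at -0.04. Under median scaling H2-K1, H2-D1 and Nlrc5 were above 0 and Erap1 and Tap2 passed 2-fold. The chaperone genes Calr and Canx were at -0.42 and -0.37. Among measured neighbours of Psmb8 and Psmb9 in the MHC, H2-DMa was at 0.78, H2-DMb2 and H2-Oa both at 0.54, H2-DMb1 at 0.17 and H2-Ob at -0.02.

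Genes of the interferon-γ route differed more widely. Of 19 listed, 15 were measured on both arrays, 7 of them at least 2-fold higher and 1 lower, and the list median was 1.0, against 0.60 under normexp. Irf1, a transcription factor known to induce immunoproteasome genes, had signals of 618 and 6110 (3.08 ± 0.20, 8.45-fold), and its further probe gave 3.22. Igtp, Gbp2 and Irgm1, GTPases of cell defence, were at 2.20, 2.19 and 2.13, Irgm1 near a spot marked as non-uniform. Cxcl9, with signals of 18.9 and 76.1 (1.78 ± 0.32), and Irf8, with 31.5 and 81.7 (1.15 ± 0.24), were dim on the control array. So was Irgm1, with 32.9 and 169 and an error of 0.23, and Gbp2 had 72.5 and 386. Irf9 lay just under the 2-fold line, and its further probe was at 0.45. Jak2, a receptor-associated kinase, was lower, with 781 and 312 (-1.55), while Jak1 was at -0.40 and the receptor genes Ifngr1 and Ifngr2 at -0.48 and -0.05. Ifng itself was well above background on the knockout array alone, with signals of 14.3 and 29.8. Its measured ratio after scaling was 1.78-fold, which is no lower bound and rests on a control signal near background. Also well above background on the knockout array alone were Iigp1 (at least 11.5-fold higher), Gbp3 (at least 1.86-fold) and Ifi47 (at least 1.47-fold).

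Genes of NF-κB subunits and their regulators lay on both sides of the median gene. Nfkb1 had no named probe, and Rel was not well above background on either array. Of 11 listed genes, 9 were measured, 1 at least 2-fold higher and 2 lower, with a median of -0.30 that median scaling put at 0.05. Bcl3 was at -2.06, Tnfaip3 at -1.32 and Rela, with signals of 2480 and 1560, at -0.90. Nfkbid was at 2.65 ± 0.25 and was dim on the control array, with signals of 33.2 and 243.

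**Figure D4:**
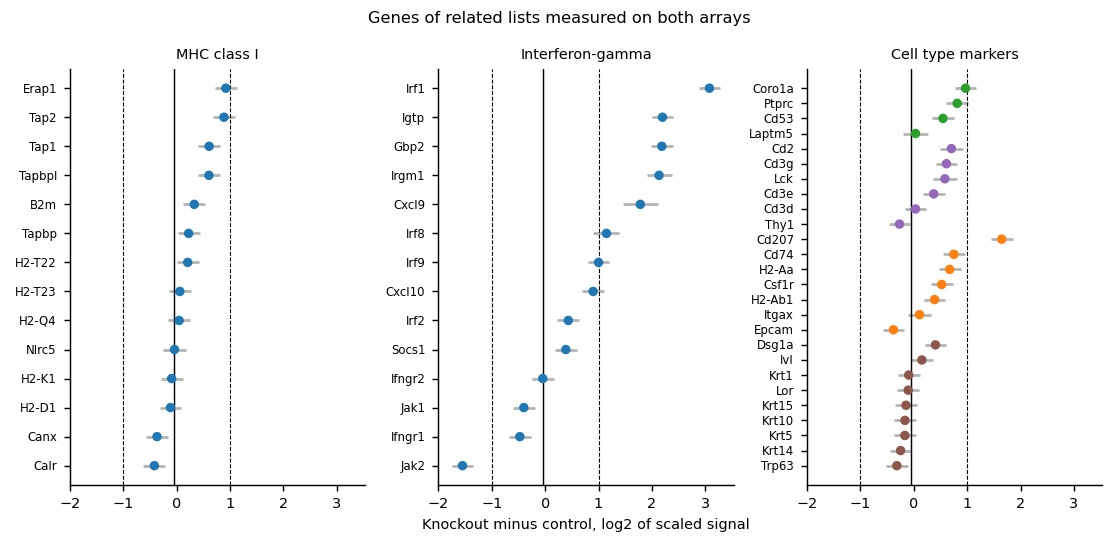
Knockout minus control log2 difference (bars, 1 software standard error) of genes measured on both arrays in the MHC class I list, the interferon-γ list without 1 gene, and 4 marker lists, coloured green for leukocyte, purple for T cell, orange for Langerhans and other antigen-presenting cells and brown for keratinocyte. The solid line is the median of all genes at -0.05 and dashed lines mark 2-fold. Irf1 is the furthest right at 3.08 and Cd207 leads the markers at 1.65.

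Most measured markers of leukocytes, T cells and antigen-presenting cells, which carry the immunoproteasome without stimulation, were also higher on the knockout array. Summed signals of markers are given before scaling between arrays. The 4 leukocyte markers were all measured, with summed signals of 911 and 1870 and a median difference of 0.68. Coro1a had signals of 350 and 802 (0.97) and Ptprc, which encodes CD45, 400 and 821 (0.81), while Cd53 and Laptm5 were at 0.55 and 0.03. Further measured probes of Coro1a and Ptprc were lower, at 0.75 and 0.53. Of 11 T cell markers, 6 were measured, 5 of them above 0, with a median of 0.48, and Cd8a was not well above background. Their summed signals, 3280 and 3800, stood in about the ratio of the array 75th percentiles, 194 and 227, so the sum was not higher after scaling. Thy1, the brightest of them, had 2110 and 2050 (-0.27), and Cd3d was at 0.03. Of 8 markers of Langerhans and other antigen-presenting cells, 7 were measured, 6 above 0, with summed signals of 13800 and 22600 and a median of 0.52. Cd207, the langerin gene, had 166 and 608 (1.65). Epcam went the other way at higher signals, 1960 and 1760 (-0.38), and Itgax was at 0.11. The brightest in the sum were H2-Ab1 (5770 and 8840) and Cd74 (4720 and 9300). The 4 neutrophil markers with a probe (Mpo, Elane, Csf3r and Cxcr2) stayed at background on both arrays. The 9 keratinocyte markers had summed signals of 315000 and 331000 and a median of -0.15, and that median lay above 0 once arrays were scaled by the median, by quantiles or by loess. In a bulk sample more cells of a type and more RNA per cell cannot be told apart, and the part of immune cells in the Psmb8, Psmb9 and Psmb10 values was not tested. The 5 measured fibroblast markers had summed signals of 2530 on each array and a median of -0.32, or 0.03 under median scaling. Lower on the knockout array were the melanocyte, skeletal muscle and red blood cell markers measured on both arrays, 3 in each list, whose part in these values was not tested. Their medians were -2.05, -3.19 and -3.95, against -1.34, -1.84 and -2.49 under normexp.

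**Figure D5:**
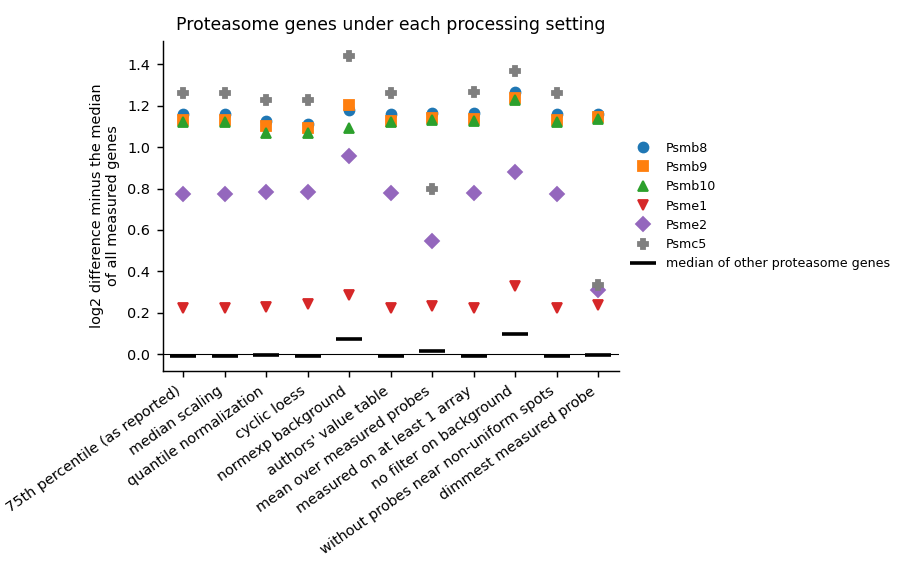
Log2 difference minus the median of all measured genes for Psmb8, Psmb9, Psmb10, Psme1, Psme2 and Psmc5, and the median of the other proteasome genes (black bars), under each processing setting. The immune catalytic genes stay between 1.07 and 1.27 above the median gene in every setting shown, whereas Psmc5 and Psme2 drop to 0.33 and 0.31 with the dimmest probe.

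Psmb8, Psmb9 and Psmb10 were at least 2-fold higher in every setting drawn. Psme2 passed 2-fold under median scaling alone, at 1.08, and Psmc5 lost it where its probes were averaged (0.74) or its dimmest probe was used (0.27).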

How the data were processed

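Gene expression was read on 2 one-colour Agilent arrays, 1 per genotype, from 1 slide and 1 scan day. Per the file headers, the authors' scanner files came from Agilent Feature Extraction 10.7.3.1 on a design annotated on mm9. Per the file headers, these linear intensities were background-subtracted and detrended within each array before the files were deposited. The authors' deposited value table holds log2 values centred on each probe (largest absolute sum of the columns 1e-06). Its knockout minus control difference differed from that of the scanner values by a median of -0.0034. The median difference of the 5 immunoproteasome and PA28 genes was 1.074 in it and 1.0757 in the scanner values, so direction and scale were alike.

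Control spots and outlier spots were removed, spots of a probe were averaged as log2 signals, and each array was divided by its 75th percentile over probes. The probe with the highest mean scaled signal over both arrays stood for a gene, so a high knockout signal could enter the choice. Dim sides were given as bounds where their signal lay below the lowest one that passed background. The quantile, loess and normexp (offset 50) alternatives used limma 3.58.1 in R 4.3.3, and normexp was run on median spot signals without non-uniform spots. Python 3.11.15 and pandas 2.3.3 did the rest, and the calling code was tested on simulated data. Genes were called by size, at 2-fold, with no test. The number of arrays limits the precision.

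The members, lists, naming rule and alternatives were chosen with earlier results of these data known. All members, and all MHC class I and interferon-γ genes, could be named, with up to 4 genes furthest from 0 from other lists. Markers, MHC neighbours, Nfe2l1 and NF-κB genes named beyond that were chosen after their values were seen. Values of some single genes are not reported here.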

Additional observations from a re-analysis of the deposited data

How the results depend on the processing

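The use of the dimmest probe and the omission of Psmc3ip and Psme3ip1 were chosen after seeing the data. No paired analysis was possible because only 1 array per genotype was used. The medians of the 5 immunoproteasome and PA28 genes and of the other members (1.08 and -0.06) were 1.42 and 0.29 under median scaling, which moves all genes alike, and ranged from 0.90 to 1.10 and from -0.08 to 0.04 in the other alternatives run, the lowest being with 1 of the 5 genes left out. The gap between both medians ranged from 1.02 under normexp to 1.14 with the dimmest probe over the scalings, filters and probe choices. The count of 4 members at least 2-fold higher was 6 under median scaling, where 8.13% of all genes were called against 2.98% as reported. It was 3 with probes averaged (2.66% of all genes) or with the dimmest probe (3.08%), and 0 at 3-fold. No member was at least 2-fold lower in any alternative.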
